A study of Mus musculus with 10 samples.

Results

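Cytochrome P450 genes encode a large family of haem enzymes that add oxygen to lipids, hormones, vitamins and foreign chemicals. A gene was taken as a member when the array annotation gave its probe set a single symbol of the form Cyp plus a digit. Cyp51, the sterol demethylase, was left out and is treated with the related enzymes. This gave 62 genes of the 12394 genes measured, each represented by its probe set with the highest mean over the 10 arrays. By role they comprise 31 genes of the Cyp2 family, 10 of Cyp4, 5 of Cyp3 and 3 of Cyp1. The others are 6 genes of bile acid and oxysterol metabolism, 4 of steroid hormone synthesis, 2 of vitamin D metabolism and 1 of retinoic acid clearance.

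The study profiled the RNA of mammary cell populations isolated by sorting from FVB/N mice, and compared populations of the tumour with each other and with control fibroblasts. Fibroblasts of wild-type (WT) control glands, labelled COF, had 3 arrays. The other populations, CAF with 3 arrays and TEC and CSC with 2 each, came from mammary tumours of mice with the genotype WAPCre-DNbcatn;HGF. That genotype joins a Cre under the promoter of a milk protein gene with a beta-catenin construct and HGF, the ligand of the receptor Met. CAF and CSC are the usual short forms for cancer-associated fibroblasts and cancer stem cells. One label field of the TEC samples reads TEFs. Neither the sorting gates, the ages of the mice nor what drives HGF are given in the sources used here. Whether the arrays of a group come from separate mice is not labelled, so the p-values cover the spread among these samples alone. A sorted sample pools many cells, so that fewer cells with a transcript and less transcript per cell cannot be told apart.

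P450 enzymes of the endoplasmic reticulum draw electrons from a common reductase and those of mitochondria from ferredoxin. The families Cyp1 to Cyp4 oxidise foreign chemicals and fatty acids, often under control of ligand-activated sensors such as the aryl hydrocarbon receptor, whereas the higher-numbered families handle sterols, steroid hormones, vitamin D and retinoic acid. In the mammary gland these enzymes are best known for turning over oestrogens and for activating chemical carcinogens.

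Marker genes fixed by cell type set the frame for what follows. The median of 8 fibroblast genes lay between 13.22 and 13.32 on the 6 fibroblast arrays and at 8.88 and 9.05 on the CSC arrays, but at 9.38 on TEC replicate 1 and 12.11 on TEC replicate 2. The median of 8 epithelial genes rose from 6.04 to 6.73 on the COF arrays over 7.51 to 7.65 (CAF) and 9.66 and 10.41 (TEC) to 12.27 and 12.37 (CSC). That of 5 leukocyte genes was lowest on the COF arrays, at 5.25 to 6.57, followed by 7.04 to 8.88 (CAF), 10.61 and 11.36 (CSC) and 13.09 and 13.38 (TEC). Macrophage genes, 6 in number, had medians of 5.60 to 5.91 (COF) and 6.83 to 7.35 (CAF), and overlapped between CSC (11.77 and 11.79) and TEC (11.57 and 11.94). The TEC arrays thus carried leukocyte genes at the highest level and differed from each other in fibroblast genes. All values are on the log2 scale, on which the median of an array was between 6.89 and 7.02.

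Most P450 genes were read at the level of genes that mammary cells are not known to use. As a yardstick, 62 sensory receptor genes (odorant, vomeronasal and trace amine receptors) had a 95th percentile of 5.67 to 5.77 on the fibroblast arrays, 5.18 and 5.26 on the TEC arrays, and 5.16 and 4.89 on the CSC arrays. A P450 gene was called above background in a population when it exceeded this percentile on every one of its arrays. By that rule 18 members were above background in COF, 17 in CAF, 15 in TEC and 18 in CSC, and 40 of the 62 in none. The 22 others comprise 12 genes above background in all 4 populations, namely Cyp1b1, Cyp7b1, Cyp27a1, Cyp39a1, Cyp46a1, Cyp21a1, Cyp2b10, Cyp2d13, Cyp4b1, Cyp4f13, Cyp4f16 and Cyp4v3. Cyp2c70, Cyp2d22, Cyp2j6 and Cyp2j9 were above background in both fibroblast populations and in neither TEC nor CSC. The second probe set of Cyp2d22, not used here, read 5.58 and 5.65 in CSC, above background, and 4.98 and 5.88 in TEC. Unused probe sets also limit some genes listed above background in all 4 populations. The second of Cyp2d13 read 2.90 to 3.65 and the others of Cyp2b10 2.80 to 3.67, at background on every array. The third of Cyp1b1 read 4.31 to 4.49 on the TEC and CSC arrays, also at background. Cyp4f18 and Cyp2a12 were above background in TEC and CSC, and in neither fibroblast population. The cut is narrow for genes near it: Cyp2a12 read between 5.45 and 5.76 on all 10 arrays and passed in TEC and CSC only where the percentile itself was lower. Just inside the cut in 1 population lay Cyp2b13, at 5.30 and 5.32 in CSC, and Cyp2d9, at 5.22 on both CSC arrays. Just outside lay Cyp24a1, at 5.59 to 5.80 in COF, and Cyp17a1, at 5.40 to 5.68 in CAF.

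**Figure D1:**
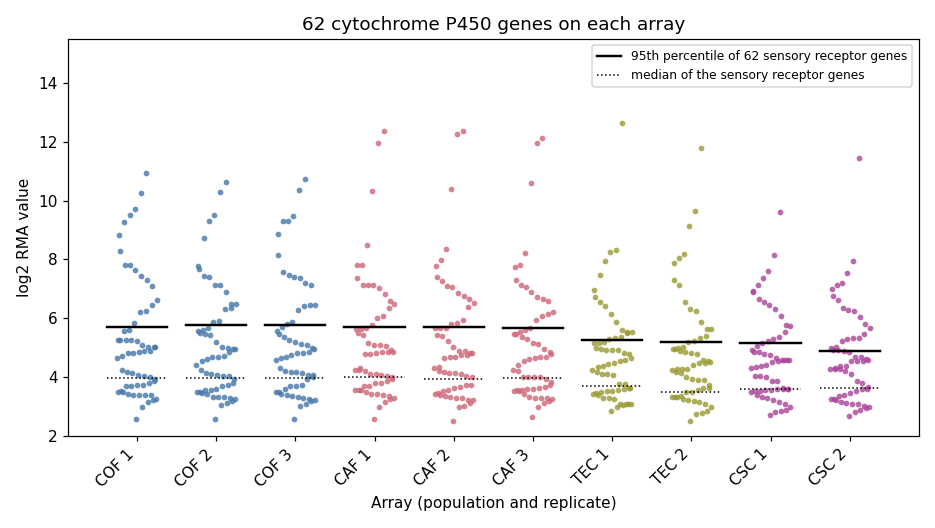
Log2 RMA value (vertical axis) of the 62 cytochrome P450 genes on each of the 10 arrays (horizontal axis), 1 point per gene; the black line marks the 95th percentile and the dotted line the median of 62 sensory receptor genes. Most points lie below the black line on every array, and both lines are lower on the TEC and CSC arrays (medians 3.48 to 3.69) than on the fibroblast arrays (3.94 to 3.99).

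Apart from Cyp21a1, the analysed enzymes of steroid hormone synthesis, of vitamin D and of retinoic acid clearance were at background. Analysed here were 4 of 6 listed genes of steroid synthesis, 2 of 3 of vitamin D and 1 of 3 of retinoic acid clearance. The readings therefore do not cover these pathways as a whole. Cyp11a1, which starts steroid synthesis from cholesterol, read 4.42 to 5.21 over the 10 arrays, and Cyp17a1, which leads to androgens, 4.56 to 5.68. Cyp27b1, which activates vitamin D, read 2.98 to 4.18, and Cyp26a1, which degrades retinoic acid, 4.75 to 5.15. Cyp21a1, a steroid hydroxylase of the adrenal cortex with a near-identical copy in the genome, was the 1 steroid synthesis gene above background, at 6.996 to 7.48 over all arrays. Its second probe set read 4.31 to 5.24 and was at background on every array. The difference of the first between CAF and COF was -0.06 (95% interval -0.29 to 0.18). All 5 Cyp3 genes, the main drug-metabolising family of liver, lay between 2.52 and 4.27. Cyp1a1 and Cyp1a2, classic targets of the aryl hydrocarbon receptor, lay at 3.92 to 4.54 and 4.32 to 5.20. Cyp7a1, the rate-limiting enzyme of bile acid synthesis in liver, lay at 3.91 to 5.13, and Cyp8b1, another bile acid enzyme, at 4.28 to 4.91.

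Between CAF and COF, the comparison of tumour with control fibroblasts, 13 of 62 P450 genes passed at an adjusted p under 0.05 in limma, 5 higher and 8 lower in CAF. Of all genes tested 34.8% passed, 18.1% higher and 16.7% lower. The median difference over the 62 members was -0.0021, against 0.018 over all genes. Of the called members, 9 were above background in CAF or COF. Of these, Cyp7b1, Cyp1b1, Cyp4f16 and Cyp2b10 were higher in CAF and Cyp27a1, Cyp39a1, Cyp2d22, Cyp2f2 and Cyp2j9 lower. The other 4 calls were at background in both populations: Cyp2c23 (-0.86), Cyp4f15 (-0.59), Cyp2e1 (-0.54) and Cyp3a13 (0.33). The call of Cyp2e1, which oxidises ethanol, was lost without COF replicate 1, any 1 of the CAF arrays or either CSC array (adjusted p 0.052 to 0.105), and that of Cyp3a13 without CAF replicate 2 (0.060).

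Promoters of called members are shown because Cyp1b1 is a classic target of the aryl hydrocarbon receptor, whose own gene also differed between CAF and COF. RefSeq promoters (build GRCm38.p6, 250 bases before to 50 after the start of transcription) were found for 45 of the 62 members. Of the 9 called members above background, 6 had an entry and 4 are printed, from 5′ to 3′ on the gene's strand. Capitals mark the core of the aryl hydrocarbon receptor element, GCGTG or, on the other strand, CACGC. Cyp1b1 (chr17:79715012-79715311, minus strand) and Cyp4f16 (chr17:32536307-32536606, plus strand) were higher in CAF, and each held 1 core. Cyp27a1 (chr1:74713285-74713584, plus strand), lower in CAF, held none, and Cyp2j9 (chr4:96591436-96591735, minus strand), also lower, held 1.
Cyp1b1: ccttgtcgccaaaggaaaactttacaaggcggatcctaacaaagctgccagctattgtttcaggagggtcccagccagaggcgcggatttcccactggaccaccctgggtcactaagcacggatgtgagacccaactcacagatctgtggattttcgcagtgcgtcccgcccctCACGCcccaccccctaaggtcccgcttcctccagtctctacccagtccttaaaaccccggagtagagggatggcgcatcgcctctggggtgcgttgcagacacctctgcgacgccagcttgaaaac
Cyp4f16: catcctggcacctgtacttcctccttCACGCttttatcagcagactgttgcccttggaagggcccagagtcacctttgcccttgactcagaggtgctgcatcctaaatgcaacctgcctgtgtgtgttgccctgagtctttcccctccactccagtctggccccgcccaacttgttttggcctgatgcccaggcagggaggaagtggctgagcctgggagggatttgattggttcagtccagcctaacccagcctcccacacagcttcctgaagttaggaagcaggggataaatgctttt
Cyp27a1: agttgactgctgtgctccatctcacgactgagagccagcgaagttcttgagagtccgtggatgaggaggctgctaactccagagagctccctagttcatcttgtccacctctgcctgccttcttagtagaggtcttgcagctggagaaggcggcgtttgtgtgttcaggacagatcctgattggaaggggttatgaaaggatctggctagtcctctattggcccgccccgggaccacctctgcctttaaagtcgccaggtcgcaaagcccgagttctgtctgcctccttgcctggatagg
Cyp2j9: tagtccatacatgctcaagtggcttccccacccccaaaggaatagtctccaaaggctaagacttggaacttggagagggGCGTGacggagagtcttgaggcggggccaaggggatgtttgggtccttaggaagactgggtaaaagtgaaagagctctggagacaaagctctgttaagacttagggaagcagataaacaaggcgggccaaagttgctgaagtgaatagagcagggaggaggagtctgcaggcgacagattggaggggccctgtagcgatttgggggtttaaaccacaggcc
Of the other 2, Cyp2b10 held 2 cores and Cyp2f2 none. The core stood in 32.4% of all 32851 promoters in the table and in 11 of the 52 promoters of P450 genes, or 21.2%. The nuclear receptor element AGGTCA, or TGACCT on the other strand, stood in 16.3% of all promoters and in 13 of the 52, or 25%. A match describes these letters only.

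Of the 6 bile acid and oxysterol enzymes 1 was higher in CAF, 2 were lower and 3 (Cyp46a1, Cyp7a1 and Cyp8b1) did not pass. The share called was 50%, against 34.8% of all genes. Cyp7b1, which hydroxylates oxysterols and thereby inactivates the products of Ch25h and Cyp27a1, read 9.52, 9.51 and 9.48 in COF and 11.97, 12.28 and 12.13 in CAF. Every CAF array was above every COF array, and the difference was 2.62 ± 0.53 (SE), or 6.15-fold, with an adjusted p of 0.00504. Its second probe set differed by 2.56. Cyp27a1, the mitochondrial sterol hydroxylase that makes an oxysterol from cholesterol, read 9.70, 7.78 and 9.32 in COF and 6.35, 6.38 and 6.13 in CAF. The COF arrays were widely spread, yet the lowest of them lay above all CAF arrays, and the fall of 6.26-fold had an adjusted p of 0.00114. The lowest array, COF replicate 2, differed from the other COF arrays in several marker medians. Its adipocyte and macrophage medians were the lowest of the 3 (7.20 and 5.60), and its epithelial and leukocyte medians the highest (6.73 and 6.57). The part of these cell types in the spread of Cyp27a1 was not tested. Without COF replicate 2 the difference was -3.22.

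Cyp39a1, another oxysterol hydroxylase, read 8.83, 9.31 and 8.88 in COF and 7.12, 7.26 and 7.12 in CAF. The populations did not overlap, and Cyp39a1 was 3.57-fold lower in CAF (-1.84 ± 0.17, adjusted p 9.81e-05), the smallest p of any member in this comparison. Cyp46a1, which hydroxylates cholesterol in brain, differed by -0.13 (95% interval -0.38 to 0.12). Outside the P450 family Ch25h, which makes an oxysterol from cholesterol, read 8.29, 8.48 and 8.29 in COF and 6.76, 6.71 and 7.01 in CAF. It differed by -1.52 ± 0.12 (adjusted p 5.25e-05). So Cyp27a1 and Ch25h, which form oxysterols, and Cyp39a1 were lower in CAF, whereas Cyp7b1 was higher.

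Adipocyte markers moved with the genes that were lower in CAF. The median of 6 measured adipocyte genes was 7.20 to 7.71 in COF and 6.44 to 6.54 in CAF, and 4 of the 6 passed as lower. Epithelial and leukocyte markers moved the other way, with 6 of 8 and 5 of 5 higher in CAF. Of 6 macrophage markers 3 were higher in CAF, Lyz2 by 3.47, Cd14 by 3.07 and Csf1r by 1.41, and none lower. Hepatocyte genes, 5 of them measured, had medians between 4.84 and 5.93 on all arrays. Apoa1 and Ttr were the 2 above background, in every population. Between CAF and COF Alb differed by 0.51 (adjusted p 0.00687) and Apoa1 by -0.35 (0.0428). Cyp2e1 and the Cyp3 genes, which liver expresses, were at background. The part of these other cell types in the P450 differences was not tested.

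**Figure D2:**
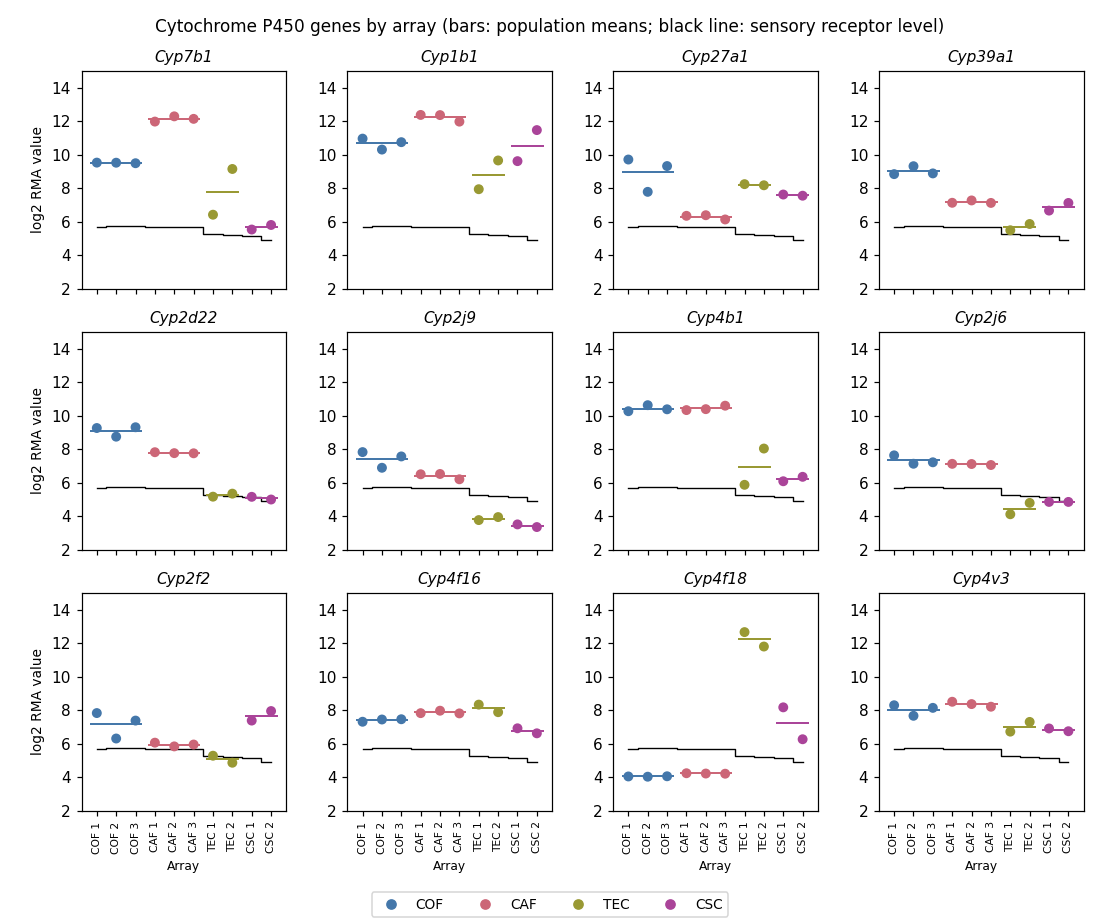
Log2 RMA value (vertical axes) of 12 cytochrome P450 genes on each array (horizontal axes), with bars at the population means and a black line at the 95th percentile of the sensory receptor genes on that array. Cyp7b1 is highest in CAF, Cyp27a1, Cyp39a1, Cyp2d22 and Cyp2j9 are lower in CAF than in COF, Cyp4f18 stands high in TEC, and the TEC arrays differ in Cyp7b1 and Cyp4b1.

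Cyp1b1, which oxidises oestradiol, retinol and polycyclic hydrocarbons, read 10.95, 10.30 and 10.74 in COF and 12.37, 12.36 and 11.97 in CAF. The CAF arrays were all higher, by 1.57 ± 0.51 or 2.96-fold, with an adjusted p of 0.0419. The call rested on every fibroblast array: it was lost when any 1 of the 6 was left out, with adjusted p from 0.072 to 0.117, and with a mean-variance trend (0.054). With only COF and CAF in the fit the adjusted p was 4.98e-04. The probe sets of Cyp1b1 disagreed. The second differed by 1.53 in the same direction, but the third read 6.83, 6.40 and 6.98 in COF and 6.15, 5.86 and 6.03 in CAF, a difference of -0.73, and the mean of the 3 gave 0.79 with an adjusted p of 0.12.

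Of the genes around the aryl hydrocarbon receptor, Ahr itself, the sensor, read 6.68, 7.03 and 6.87 in COF and 8.56, 8.79 and 8.72 in CAF, a difference of 1.83 ± 0.18 (adjusted p 1.18e-04). Tiparp, an induced repressor of the receptor, was lower in CAF by -0.56 ± 0.16 (adjusted p 0.0219). Ahrr, another repressor that the receptor induces, read 3.23 to 3.69 in the fibroblasts and was at background, as was Cyp1a1. Cyp2s1, also inducible through this receptor, differed by -0.18 (95% interval -0.37 to 0.01).

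The Cyp2 family had 6 calls among 31 genes, 1 higher and 5 lower in CAF, or 19.4% called against 34.8% of all genes. Of the lower ones, Cyp2c23 and Cyp2e1 were at background in both populations. Cyp2d22, a drug-metabolising enzyme, read 9.26, 8.74 and 9.30 in COF and 7.82, 7.76 and 7.75 in CAF, a fall of 2.51-fold (-1.33 ± 0.15, adjusted p 2.23e-04). Cyp2j9, an epoxygenase of arachidonic acid, read 7.82, 6.89 and 7.56 in COF and 6.50, 6.52 and 6.20 in CAF. It was 2.03-fold lower in CAF (adjusted p 0.00585). Its neighbour on the chromosome and close relative Cyp2j6 read 7.63, 7.13 and 7.21 in COF and 7.12, 7.11 and 7.05 in CAF, and its difference of -0.23 did not pass (95% interval -0.64 to 0.18).

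Cyp2f2, which activates naphthalene in airway cells, read 7.82, 6.31 and 7.38 in COF and 6.06, 5.84 and 5.95 in CAF. Its difference of -1.22 ± 0.34 had an adjusted p of 0.0209, and the call was lost without COF replicate 1, COF replicate 3 or any 1 of the CAF arrays (adjusted p 0.051 to 0.077). Cyp2b10, a target of the constitutive androstane receptor in liver, read 6.22, 6.48 and 6.40 in COF and 7.02, 6.75 and 6.71 in CAF. The difference of 0.46 ± 0.12 (adjusted p 0.0136) was lost without COF replicate 1 (adjusted p 0.056) or CAF replicate 1 (0.054), and the mean of its 3 probe sets differed by 0.07.

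In the Cyp4 family, which hydroxylates fatty acids and their derivatives, 2 of 10 genes were called between CAF and COF. That was 20%, against 34.8% of all genes. Cyp4f16 read 7.31, 7.44 and 7.46 in COF and 7.82, 7.97 and 7.81 in CAF, 0.46 ± 0.13 higher (adjusted p 0.0243). That call was lost without COF replicate 1, COF replicate 3 or any 1 of the CAF arrays (adjusted p 0.051 to 0.092), with the mean of its probe sets (0.057) and with arrays centred on their medians (0.087). Cyp4b1 read 10.26, 10.62 and 10.38 in COF and 10.33, 10.38 and 10.59 in CAF, with a difference of 0.02 whose 95% interval ran from -0.97 to 0.996. Cyp4v3 and Cyp4f13 differed by 0.32 (adjusted p 0.241) and 0.19 (0.448).

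**Figure D3:**
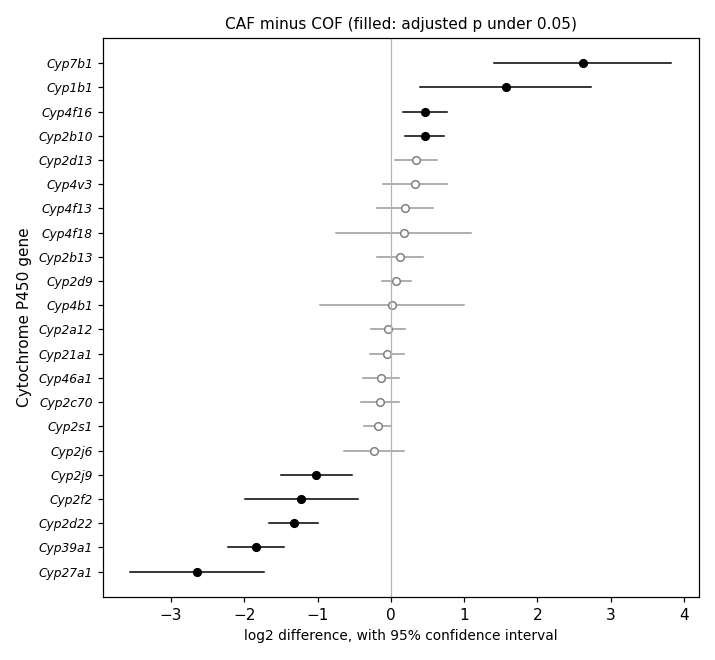
Log2 difference CAF minus COF (horizontal axis, points with 95% confidence intervals) of the 22 cytochrome P450 genes above background in at least 1 population; filled points passed at an adjusted p under 0.05 in limma. Cyp7b1 has the highest difference at 2.62 and Cyp27a1 the lowest at -2.65, and 13 of the 22 genes did not pass.

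Between CSC and TEC, the comparison of the other sorted tumour populations, 9 of 62 P450 genes passed, 3 higher and 6 lower in CSC. Of all genes 46.7% passed, 26.6% higher and 20.1% lower. Of the 9, 6 were above background in at least 1 of the populations. Cyp11a1 (-0.47), Cyp1a2 (-0.52) and Cyp2c38 (-0.48) were at background in both, and with only the TEC and CSC arrays the adjusted p was 0.122 for Cyp11a1 and 0.157 for Cyp1a2. With only the 4 arrays of these populations in the fit, 5 members and 3013 genes passed, against 5786 genes with all arrays.

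The largest P450 difference between TEC and CSC was in Cyp4f18, which degrades leukotrienes in white blood cells. It read 12.65 and 11.79 in TEC against 8.17 and 6.26 in CSC, and 4.03 to 4.23 on the 6 fibroblast arrays, below background. Cyp4f18 was 32.2-fold lower in CSC than in TEC (-5.01 ± 0.50, adjusted p 6.58e-05), and the CSC arrays themselves differed by more than the TEC arrays. Like the leukocyte marker median it was highest in TEC, next in CSC and lowest in the fibroblasts. Tbxas1, the thromboxane synthase of platelets and macrophages with a P450 fold, was also lower in CSC than in TEC (-0.40 ± 0.12, adjusted p 0.0228). The part of leukocyte RNA in the level of Cyp4f18 was not tested.

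Cyp4f16 read 8.33 and 7.88 in TEC and 6.92 and 6.62 in CSC, a fall of 2.53-fold (adjusted p 1.90e-04). Cyp7b1 read 6.41 and 9.14 in TEC and 5.53 and 5.80 in CSC, and the difference of -2.11 ± 0.66 (adjusted p 0.0257) leaned on the array with high fibroblast genes. It was -0.75 without TEC replicate 2 and -3.48 without TEC replicate 1, it was not called without either CSC array (adjusted p 0.097 and 0.076), and with only the TEC and CSC arrays the adjusted p was 0.17. Cyp4b1 showed the same split, with 5.87 and 8.03 in TEC against 6.08 and 6.35 in CSC. Its difference of -0.74 did not pass (adjusted p 0.289), and it was -1.82 without TEC replicate 1 and 0.35 without TEC replicate 2. Ptgis, the prostacyclin synthase with a P450 fold, read 5.73 on TEC replicate 1 and 8.0 on TEC replicate 2.

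Higher in CSC than in TEC were Cyp2f2, Cyp39a1 and Cyp1b1. Cyp2f2 read 5.28 and 4.86 in TEC and 7.38 and 7.95 in CSC, 2.59 ± 0.41 higher (adjusted p 8.75e-04). TEC was not above background for this gene. Cyp39a1 read 5.49 and 5.86 in TEC and 6.66 and 7.11 in CSC, a rise of 2.32-fold (adjusted p 0.00125). Cyp1b1 read 7.93 and 9.65 in TEC and 9.61 and 11.46 in CSC, so that the arrays overlapped. Its difference of 1.74 ± 0.63 had an adjusted p of 0.0471, moved between 0.82 and 2.67 as arrays were left out, and was not called without TEC replicate 1 (adjusted p 0.28), CSC replicate 2 (0.33) or any 1 of the 6 fibroblast arrays (0.059 to 0.068), nor with only the TEC and CSC arrays (0.205), with a mean-variance trend (0.059) or with low values raised to each array's own sensory receptor level (0.052).

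Between CAF and CSC, the pair whose interaction the study asked about, 45 of 62 P450 genes passed, 34 higher and 11 lower in CAF. Of all genes 66.5% passed, 33.4% higher and 33.1% lower, so the total share was near the background while the direction was uneven. The sensory receptor genes also leaned towards CAF, 36 of 62 higher and 3 lower, with a median difference of 0.36 against 0.37 for the P450 genes and 0.015 for all genes. Of the 45 called members 28 were at background in both populations. With each array centred on its sensory receptor median, 16 members were higher and 19 lower, and the median of all genes shifted to -0.35. With each array centred on its own median, 40 were higher and 9 lower, and the median of all genes was 0.18. The split between higher and lower calls thus moved with the scaling.

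Cyp7b1, Cyp4b1, Cyp4v3 and Cyp4f16 were above background in both CAF and CSC. They passed as higher in CAF under each of the scalings and floors tried. Cyp7b1 was 88.2-fold higher in CAF than in CSC (6.46 ± 0.60, adjusted p 1.67e-05), with 11.97 to 12.28 against 5.53 and 5.80. Cyp4b1, at 10.33 to 10.59 against 6.08 and 6.35, was 18.6-fold higher (adjusted p 6.19e-05). Cyp4v3, a fatty acid hydroxylase, read 8.50, 8.36 and 8.20 in CAF and 6.91 and 6.74 in CSC, a difference of 1.53 ± 0.22 (adjusted p 2.18e-04). Cyp4f16 read 7.82, 7.97 and 7.81 in CAF and 6.92 and 6.62 in CSC. It differed by 1.10 (adjusted p 1.71e-04 in limma over all probe sets).

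A further 4 genes had values above background in CAF and not in CSC, so the size of each difference depends on the background. With every value under the highest 95th percentile of the sensory receptor genes raised to it, the differences were 2.01 for Cyp2d22, 1.33 for Cyp2j6, 1.20 for Cyp2c70 and 0.64 for Cyp2j9, the last with an adjusted p of 0.088. As deposited, Cyp2j9 differed by 2.98 (adjusted p 7.11e-06), Cyp2d22 by 2.70 (1.24e-06) and Cyp2j6 by 2.24 (1.39e-05). The second probe set of Cyp2d22, which was above background in CSC, differed between CAF and CSC by 1.72. Cyp2c70, a liver enzyme of bile acid metabolism in mice, read 7.08 to 7.14 in COF, 6.86 to 7.13 in CAF, 4.46 and 4.82 (TEC), and 4.58 and 4.68 (CSC). It differed by 2.33 ± 0.13 between CAF and CSC (adjusted p 6.71e-07). The other 9 of the 10 Cyp2c genes that lie next to it on the chromosome were at background.

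Lower in CAF than in CSC and above background in CSC were Cyp4f18 (-2.99 ± 0.46, adjusted p 3.53e-04), Cyp2f2 (-1.71 ± 0.38, 0.00322), Cyp27a1 (-1.30 ± 0.45, 0.0291) and Cyp2d9 (-0.52, 0.00119). The direction of Cyp2d9, which just passed the background cut in CSC, was not stable: with values under each array's own sensory receptor level raised to that level the difference was 0.47, and with 1 common level all arrays tied. Cyp4f18 was at background in CAF, and its difference was -1.45 (adjusted p 0.062) with low values raised to the 1 common level. The call for Cyp27a1, at 6.13 to 6.38 in CAF and 7.62 and 7.55 in CSC, was lost without either CSC array. Leaving out any 1 of the CAF arrays also lost it (adjusted p 0.054 to 0.073). So did centring arrays on their own median (adjusted p 0.052) and raising low values to the 1 common level (0.084). Cyp1b1 was higher in CAF by 1.69 ± 0.57 (adjusted p 0.0265), but by 0.77 without CSC replicate 1. The call was lost without CSC replicate 1, and without CAF replicate 1 or 2 (adjusted p 0.067 and 0.065). It was also lost with arrays centred on their sensory receptor median (1.33, adjusted p 0.076) and with low values raised to the 1 common level (adjusted p 0.080). Cyp39a1 differed by 0.28 (95% interval -0.15 to 0.71).

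**Figure D4:**
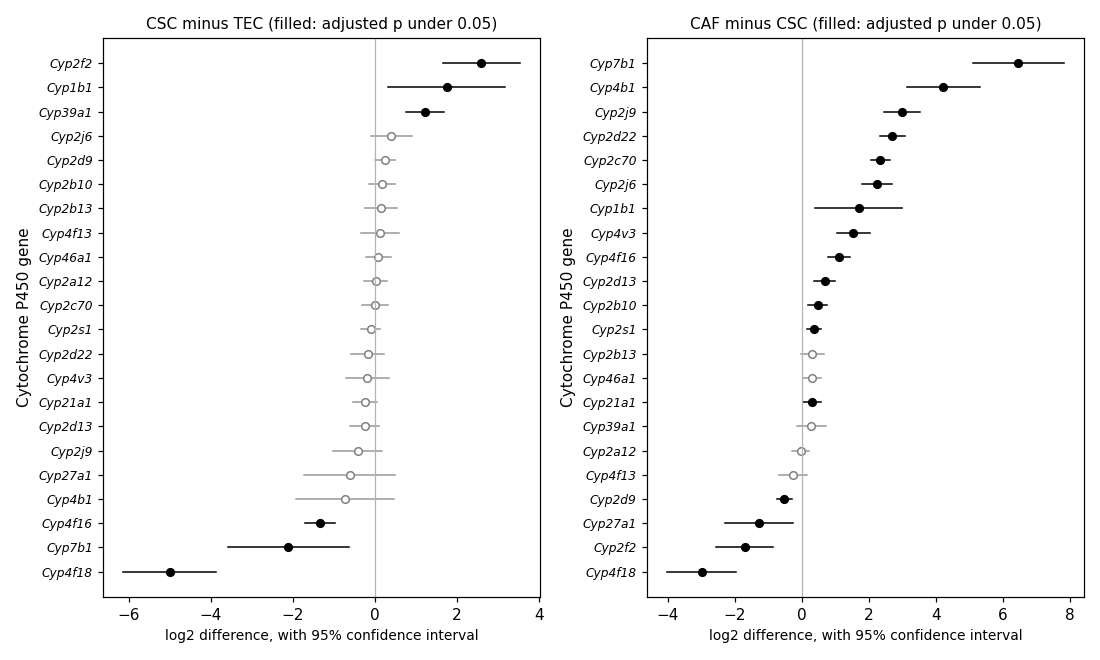
Log2 differences CSC minus TEC (left) and CAF minus CSC (right) on the horizontal axes, with 95% confidence intervals, of the 22 cytochrome P450 genes above background in at least 1 population; filled points passed at an adjusted p under 0.05 in limma. Cyp4f18 is lowest on both sides (-5.01 and -2.99), Cyp2f2 is highest on the left at 2.59 and Cyp7b1 on the right at 6.46.

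The order of the 4 populations differed from gene to gene. For Cyp7b1 it was CAF, COF, TEC and CSC, and all neighbours differed at an adjusted p under 0.05, with COF over TEC by 1.73 (adjusted p 0.0278). The place of TEC in this order is uncertain, since its arrays read 6.41 and 9.14, against 9.48 to 9.52 in COF. With only the TEC and CSC arrays in the fit, their difference in Cyp7b1 did not pass (adjusted p 0.17). For Cyp1b1 CAF was highest, the difference of COF and CSC did not pass (0.13, adjusted p 0.854), and COF exceeded TEC by 1.87 (adjusted p 0.0164). For Cyp27a1 COF was highest and CAF lowest, and COF and TEC differed by 0.73 without passing (adjusted p 0.176). The TEC arrays, at 8.24 and 8.17, lay above the CSC arrays, and their difference, -0.62 for CSC minus TEC, did not pass over all 10 arrays (adjusted p 0.335). It passed with only the TEC and CSC arrays (0.042) and without COF replicate 2 (0.00965). For Cyp2f2 CSC was highest, and its difference from COF did not pass (-0.49 for COF minus CSC, adjusted p 0.272). These comparisons share arrays and are given side by side. Between CAF and TEC 41 of 62 members passed, 31 higher and 10 lower in CAF, against 67.5% of all genes, 38.6% higher and 28.9% lower. Between COF and CSC 48 members passed, 36 higher and 12 lower in COF, against 69.5% of all genes, 35.8% higher and 33.7% lower. Between COF and TEC 42 members passed, 30 higher and 12 lower in COF, against 68.2% of all genes, 38.5% higher and 29.8% lower. The sensory receptor genes leaned towards the fibroblasts in these comparisons too, with 30 higher and 3 lower, 34 and 0, and 32 and 0 of 62 in the same order, so the lean is not read as a result about the members.

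Several members lie next to each other in the genome. Of the Cyp4f genes in 1 run on chromosome 17, Cyp4f16 was higher and Cyp4f15 lower in CAF than in COF, Cyp4f13 read 6.35 to 7.21 on all arrays and Cyp4f14 was at background. Of the Cyp2j genes in 1 run on chromosome 4, Cyp2j6 and Cyp2j9 were above background in the fibroblasts, while Cyp2j5 and Cyp2j13 read 2.99 to 3.69 and were not. Of 6 neighbouring Cyp2d genes Cyp2d22 was above background in the fibroblasts and Cyp2d9 in CSC, and the others in no population. Near-identical copies are common in these runs, and probes may read a relative, so the values of single members there are uncertain.

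Genes that serve the P450 enzymes were described from lists of partners, sensors and related enzymes. Of 15 redox and haem genes 5 were higher and 4 lower in CAF than in COF, or 60% called against 34.8% of all genes. Among them Hmox1, which breaks haem down, read 12.86, 12.82 and 12.82 in COF and 10.48, 10.30 and 10.13 in CAF (-2.53 ± 0.22, adjusted p 7.81e-05), and Cyb5r3, a cytochrome b5 reductase, was higher by 1.23 ± 0.13. The median difference of this list was 0.034. Of 22 receptors and sensors 2 were higher and 3 lower (22.7% called), with a median of -0.097. The higher ones were Ahr and Vdr, the vitamin D receptor (0.83 ± 0.20, adjusted p 0.0111). Pparg, the fatty acid sensor that drives adipocyte genes, read 8.84, 8.41 and 8.58 in COF and 6.51, 6.86 and 6.86 in CAF (-1.87 ± 0.16, adjusted p 6.78e-05).

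Of 21 retinoid genes 4 were higher and 2 lower in CAF than in COF (28.6% called, against 34.8% of all genes), with a median of 0.017. Rdh10, which oxidises retinol, read 9.69, 10.21 and 9.70 in COF and 12.10, 12.14 and 12.06 in CAF. Aldh1a2, which makes retinoic acid, read 4.83, 5.06 and 4.59 in COF and 7.38, 7.52 and 7.89 in CAF. All CAF arrays were higher for both, by 2.23 ± 0.29 (adjusted p 5.03e-04) and 2.77 ± 0.16 (1.64e-05). COF was at background for Aldh1a2. Cyp26a1, which removes retinoic acid, stayed at background in both. It was the 1 gene analysed of 3 listed for retinoic acid clearance, so the level of that step as a whole was not read.

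Of 18 other steroid and sterol genes 3 were higher and 4 lower in CAF than in COF (38.9% called), with a median of -0.084. Akr1c14, a hydroxysteroid dehydrogenase, differed by -2.12 ± 0.28 (adjusted p 6.10e-04). Of 28 conjugation and epoxide hydrolase genes 4 were higher and 4 lower (28.6% called), with a median of -0.078. Gstm1, a glutathione transferase, differed by -1.84 ± 0.20 and Mgst3, a microsomal one, by 2.12 ± 0.26 (adjusted p 2.01e-04 and 4.02e-04). Cyp51, Tbxas1 and Ptgis, P450-fold enzymes outside the member rule, had no call between CAF and COF.

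Between CSC and TEC the same lists had 7 higher and 3 lower (redox and haem), 4 and 3 (sensors), 4 and 4 (retinoid), 6 and 3 (steroid and sterol) and 9 and 5 (conjugation). The shares called ran from 31.8% (sensors) to 66.7% (redox and haem), against 46.7% of all genes. Fdx1, the ferredoxin of mitochondrial P450 enzymes, was higher in CSC by 1.80 ± 0.18, and Crabp2, which carries retinoic acid to its receptor, by 2.39 ± 0.16 (adjusted p 7.48e-05 and 1.17e-05). Hsd11b1, which reactivates glucocorticoids, was lower in CSC (-3.64 ± 0.19), as was Aldh1a2 (-3.02 ± 0.20). Ahr read 9.65 and 9.60 in TEC and 10.63 and 11.36 in CSC, 1.37 ± 0.22 higher (adjusted p 8.06e-04).

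Between CAF and CSC the counts were 3 higher and 8 lower, 12 and 6, 10 and 4, 8 and 5, and 12 and 3 in the same order of lists. The shares called ran from 53.6% (conjugation) to 81.8% (sensors), against 66.5% of all genes, and the lean of the sensory receptor genes towards CAF applies to dim genes here too. Cyb5a, cytochrome b5, was higher in CAF by 2.40 ± 0.22, Hsd11b1 by 4.93 ± 0.17 and Ptgis by 4.66 ± 0.52 (adjusted p 1.40e-05, 7.22e-08 and 5.01e-05). Ahr (-2.30 ± 0.20), Vdr (-2.95 ± 0.22) and Crabp2 (-3.42 ± 0.15) were lower in CAF. By population means Ahr thus rose in the order COF, CAF, TEC and CSC, whereas Cyp1b1 was highest in CAF and lowest in TEC. The arrays of TEC and CSC overlapped for Cyp1b1. A link between the levels of Ahr and Cyp1b1 was not tested.

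**Figure D5:**
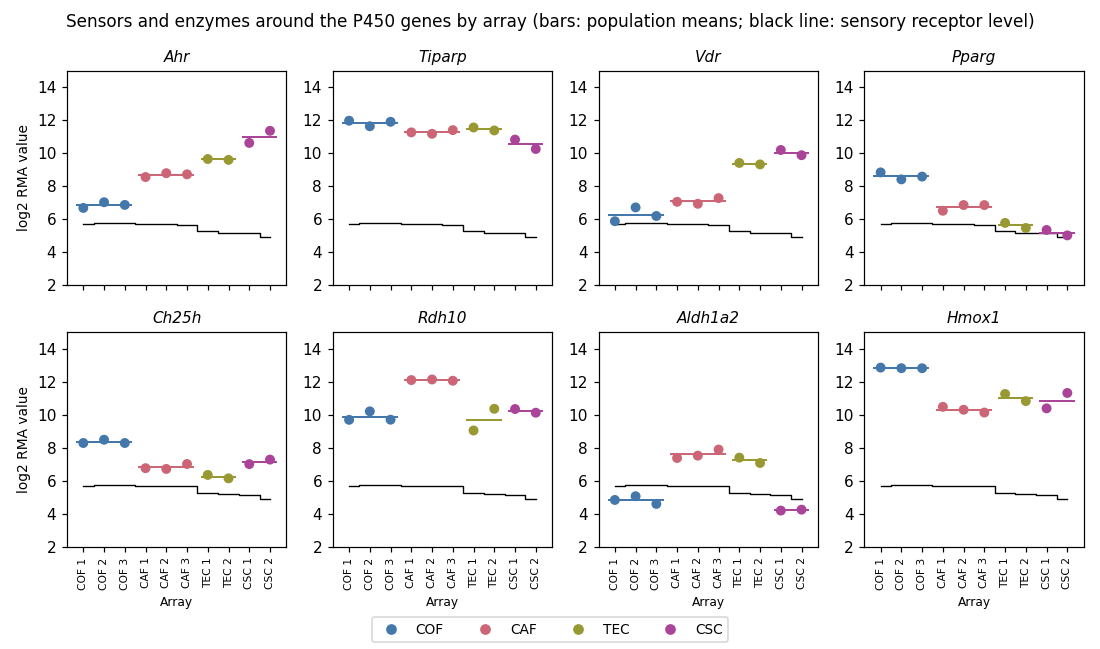
Log2 RMA value (vertical axes) of 8 genes around the P450 enzymes on each array (horizontal axes), with bars at the population means and a black line at the 95th percentile of the sensory receptor genes. Ahr and Vdr are lowest in COF and highest in CSC, Pparg, Ch25h and Hmox1 are lower in CAF than in COF, and Rdh10 and Aldh1a2 are higher in CAF than in COF.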

How the data were processed

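RNA of sorted mouse mammary cells was measured on 10 single-colour arrays from 100 ng of total RNA each. The authors deposited log2 values of 22690 probe sets. The submitters' processing notes name RMA, which corrects background, equalises the arrays' distributions and summarises probes. Not given in the sources used here are its version and whether all arrays were normalized together. The values were used as deposited. The number of arrays limits the precision, and the table holds no detection calls.

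The annotation gave 20393 probe sets 1 symbol, 691 several and 1606 none, and probe sets with 1 symbol were kept. Of the 62 members, 11 had several probe sets, and all 62 matched a RefSeq gene by identifier. A linear model of the 4 groups, with no other term, was fitted to all 12394 genes and 10 arrays in limma 3.58.1 (lmFit, eBayes; R 4.3.3), so that the groups share 1 estimate of spread. Tests were two-sided with Benjamini-Hochberg adjustment over all genes, and the threshold was an adjusted p of 0.05. Errors of differences are moderated standard errors. This code was tested on simulated data.

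Members and gene lists were chosen with earlier results of these data known. Genes were named by rule: called members without overlap between the groups and above background in the higher one, up to 8 per direction, a fixed set of 28 P450 genes, of which 5 are not analysed here, and up to 4 genes of each list by adjusted p. Cyp2c70's neighbours, Ahrr and background members near the cut were named after their values were seen. Neighbours are members within 10 protein-coding genes in RefSeq order. Alternatives were a fit of 2 groups, a replicate block, a trend, other probe set rules and scalings, filters, a stricter threshold and leaving out each array. Centring on sensory receptor genes and 1 common floor were added after seeing the data.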

Additional observations from a re-analysis of the deposited data

Results flagged for a closer look

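In all, 2 signals stood outside the genes compared, in probe sets annotated to several P450 genes, from which no gene can be named. A probe set shared by Cyp4f genes was above background, with means of 6.97 in CAF and 7.62 in TEC. It read 6.45, 6.52 and 6.45 in COF, 6.82, 7.11 and 6.97 in CAF, 7.70 and 7.54 in TEC, and 6.004 and 5.93 in CSC. A probe set shared by Cyp3a genes had a mean of 5.19 in CSC, at 5.34 and 5.04, and read 2.50 to 2.81 on all other arrays. Its difference between CSC and TEC was 2.39, with an adjusted p of 5.16e-06 in limma over all probe sets. The 5 Cyp3 genes with a probe set of their own were at background in CSC. No population has 4 or more arrays, so single arrays were not tested as outliers.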

How the results depend on the processing

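Over the named members and all alternatives, 1598 results kept their side of the threshold, 118 lost the call and 22 gained one. The 1598 include uncalled differences that changed sign or became ties. An example is Cyp4b1 between CSC and TEC, negative over all arrays and positive without TEC replicate 2. In the other 5 results a called difference reversed. The 5 were Cyp24a1 between CAF and CSC with the mean of its probe sets (-0.11), Cyp2s1 there with sensory receptor centring (-0.017), and, with values under each array's own lower limit raised to it, Cyp1a1 (0.66) and Cyp2d9 (0.47) between CAF and CSC and Cyp3a13 between CAF and COF (-0.051). Fitting only TEC and CSC left 3013 genes and 5 members called between them. At an adjusted p under 0.01, 2638 genes and 7 members passed between CAF and COF and 5 members between CSC and TEC. Without the dimmest 30% of genes 16 members remained, of which 8 passed between CAF and COF and 14 between CAF and CSC. The own lower limits left 5 members between CSC and TEC, and 1 common limit left 8, 4 and 11 in the 3 comparisons, since members under it tie. Leaving out 1 array gave 2980 to 5100 genes and 8 to 14 members between CAF and COF, 4417 to 6039 and 6 to 12 between CSC and TEC, and 7059 to 8737 and 39 to 48 between CAF and CSC. Same-numbered samples did not deviate together (correlations 0.127, 0.0063 and -0.082 between COF and CAF, -0.057 between TEC and CSC), so the numbers were not taken to pair them. With the replicate block 3947, 5365 and 7813 genes and 13, 7 and 46 members passed. Under it the calls of Cyp1b1 (adjusted p 0.052) and Cyp11a1 (0.068) between CSC and TEC were lost, and Cyp39a1 (0.043) was called between CAF and CSC. Signal near background limits the 40 members above it in no population.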
